A study of Mus musculus with 4 samples.

Results

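The ABC transporters are membrane proteins that use ATP to move lipids, bile salts, drugs, peptides and metal compounds across membranes, and the array measured 50 of their genes. The genes were taken by name, as every non-control spot whose gene symbol begins with *Abca* to *Abcg* followed by a digit, and they are 50 of the 36161 gene names on the array. They cover 7 subfamilies, with 16 genes of *Abca*, 10 of *Abcb*, 10 of *Abcc*, 4 of *Abcd*, 1 of *Abce*, 3 of *Abcf* and 6 of *Abcg*. Of the 50 genes, 49 had an unflagged probe, 44 were well above background on at least 1 array and 40 on all 4 arrays, against 35577, 27883 and 19298 of all genes. *Abca12*, *Abca14*, *Abca15*, *Abca16* and *Abcb5* were not well above background on any array. The remaining gene, *Abcb11*, had 1 probe, which the scanning software marked as non-uniform on 1 array.

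The study asked how the liver transcriptome of mice of low birth weight (microsomic, M) differs from that of control (C) mice of the same inbred strain. The samples analysed here are 4 arrays, 1 for each group, although the study's methods describe replicate experiments in each group. The groups are M females (MF), M males (MM), C females (CF) and C males (CM), all of whole liver at embryonic day 20 and of strain C57BL/6J by the labels, while the study's methods speak of newborn C57BL/6 N mice. The labels name no transgene or drug, and the methods define M by a low weight at birth for the sex of the animal. Whether an array held RNA of 1 animal or of a pool is not given in the sources used here. Since a group was a single array, the values below compare these 4 arrays and hold no spread between animals, and pairs of arrays were compared by fold alone. All 4 arrays were on 1 slide, with both M arrays in 1 column of array positions and both C arrays in another, so M or C and array column cannot be told apart.

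Hepatocytes face blood on one side and the bile canaliculus on the other, and ABC transporters of the canalicular membrane build bile. *Abcb11* exports bile salts, *Abcb4* brings phosphatidylcholine to the outer leaflet of the membrane, the *Abcg5* and *Abcg8* proteins form a heterodimer that exports cholesterol and plant sterols, and *Abcc2* exports bilirubin conjugates and glutathione conjugates, while *Abcc3* and *Abcc4* export organic anions to blood. *Abca1* and *Abcg1* load cholesterol and phospholipid onto lipoproteins, *Abcb1a*, *Abcb1b* and *Abcg2* expel drugs, and other members serve the mitochondrion, the peroxisome and the lysosome. In the fetus the placenta clears much of what the liver later sends into bile, and the fetal liver is also a site of blood formation.

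Each value below is a log2 processed signal from which the 75th percentile of its array was subtracted, for the brightest unflagged probe of a gene. Such a level depends on the probe, so it is compared between arrays and not between genes. The probes below are those of members whose differences are described first, as 60-base sequences 5′ to 3′ from the deposited files with their mm9 position. Capitals mark every run of 5 bases made of C and T with at least 3 C, because probes with 4 or more such windows made up 27.4% of the 521 genes that MF showed at over 5-fold the CF signal and 11% of the other 25015 genes compared.
*Abcg5*, chr17:85057593-85057652, minus strand: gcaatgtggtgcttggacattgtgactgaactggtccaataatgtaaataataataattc
*Abcg8*, chr17:85098745-85098804, plus strand: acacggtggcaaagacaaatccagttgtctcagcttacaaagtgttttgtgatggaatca
*Abcb11*, chr2:69076365-69076424, minus strand: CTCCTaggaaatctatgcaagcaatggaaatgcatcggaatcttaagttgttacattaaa
*Abcc4*, chr14:118882104-118882163, minus strand: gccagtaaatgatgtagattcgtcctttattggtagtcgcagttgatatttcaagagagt
*Abca1*, chr4:53043944-53044003, minus strand: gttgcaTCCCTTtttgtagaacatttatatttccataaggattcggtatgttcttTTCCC
*Abca6*, chr11:110041564-110041623, minus strand: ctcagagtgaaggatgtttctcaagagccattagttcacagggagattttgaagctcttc
*Abca9*, chr11:109962136-109962195, minus strand: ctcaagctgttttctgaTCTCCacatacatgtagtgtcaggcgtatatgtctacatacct
The probes of *Abcg5*, *Abcg8*, *Abcc4* and *Abca6* held no such window. Over the 40 members well above background on all arrays, 20 probes held none, 16 held 1 to 3 and 4 held 4 or more, which is 50%, 40% and 10%, against 53.7%, 34.6% and 11.6% of the 19298 genes. The longest stretch shared by the probes of *Abca6* and *Abca9* was 6 bases, and that of *Abcg5* and *Abcg8* was 6 bases.

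Across the whole set and with the main processing, ABC genes differed between M and C no more often than other genes in females. In males more of them lay above 0. The order in females depends on the processing, as described at the end. Among females, 8 of 42 members compared were over 1.5-fold higher in MF, where 19.9% of all 25536 genes compared were, and 7 were over 1.5-fold lower, where 21% of all genes were. The median difference of the 40 members was -0.08, the same as the -0.08 of all genes, with 18 members above 0 and 22 below, from -2.11 to 1.03. Among males, 11 of 44 members were over 1.5-fold higher in MM against 17.7% of all 26313 genes, and 2 were lower against 23.1%. The median of the 40 members was 0.19 where that of all genes was -0.03, with 29 members above 0 and 11 below, from -1.22 to 1.43. Of the 40 members, 14 were higher in M in both sexes, 7 lower in both and 19 opposite, which is 35%, 17.5% and 47.5%, beside 21.1%, 28.4% and 50.6% of all genes.

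**Figure D1:**
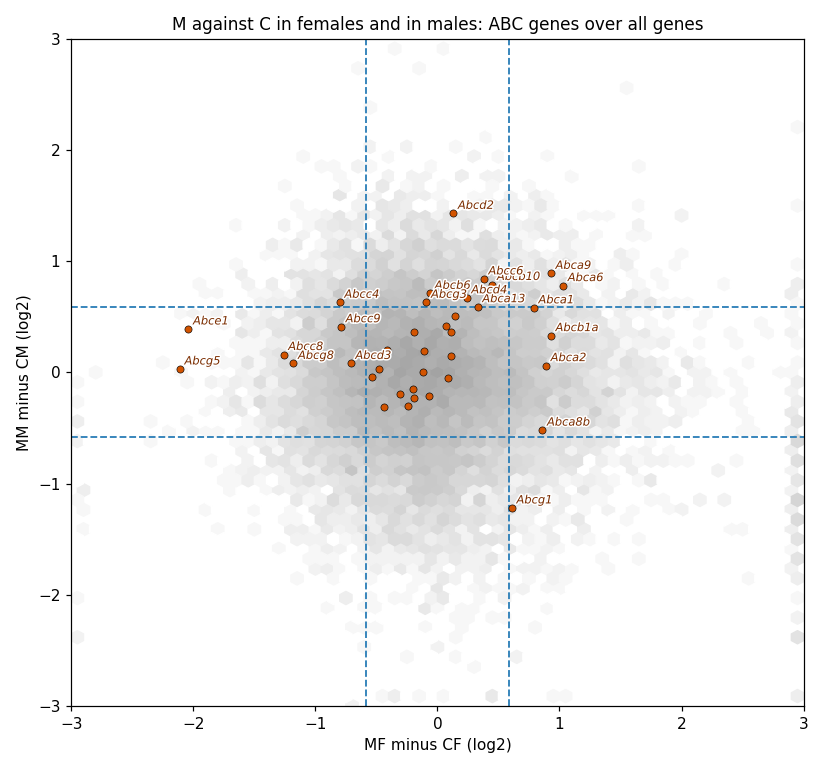
Log2 difference MF minus CF (horizontal axis) and MM minus CM (vertical axis) for 38 ABC genes well above background on all 4 arrays (orange points), over all 19298 such genes (grey, darker for more genes on a log colour scale, values beyond 3 drawn at the edge). Dashed lines are at 1.5-fold, and *Abca6* and *Abca9* are the members beyond both lines in the upper right, while *Abcg1* and *Abcc4* lie beyond them in opposite ways.

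Only *Abca6* and *Abca9* passed 1.5-fold upwards in both sexes, 2 of the 42 members compared in both, where 3.18% of 23966 genes did. No member passed it downwards in both sexes, where 3.8% of genes did, and 2 members (*Abcc4* and *Abcg1*) passed it in opposite ways, where 9.85% did. When limma was fitted to all 4 arrays with sex as a term, it called 0 of 19298 genes (0%) and 0 of the 40 members at an adjusted p of 0.05, with only 1 residual degree of freedom. At an unadjusted p of 0.05 limma passed 4.41% of all genes and 0 members, and at an unadjusted p of 0.01 with a 1.5-fold difference, 0.845% of all genes and 0 members. The member with the smallest p in limma was *Abca9* (M minus C 0.91, SE 0.41, unadjusted p 0.0609, adjusted p 0.995), followed by *Abca6* (0.90, SE 0.41, unadjusted p 0.0633). The only spread that the arrays do give is between spots of the same probe, of which 175 probes had several, and the SD of their difference was 0.333 for MF minus CF and 0.387 for MM minus CM on the log2 scale. This SD holds printing, hybridization and scanning within the array and no variation between animals.

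Among the bile genes with an unflagged probe, the sterol exporters of the canalicular membrane had the largest differences in females. *Abcg5* was at 1.46 in MF, 2.35 in MM, 3.57 in CF and 2.32 in CM. Both male arrays lay close together, CF was the highest array and MF the lowest. It was 4.31-fold lower in MF than in CF (log2 -2.11) and differed by 0.03 between MM and CM. Its partner *Abcg8* was at -1.68 in MF, -1.50 in MM, -0.50 in CF and -1.58 in CM, so that CF stood above 3 arrays that lay within a narrow range. The *Abcg8* difference was 2.26-fold lower in MF than in CF (log2 -1.18) and 0.08 between the males. In limma over both sexes the M minus C difference of *Abcg5* was -1.04 (SE 0.57, unadjusted p 0.108). *Abcg5* kept a difference over 1.5-fold in females under every alternative processing, and *Abcg8* fell to -0.49 after normexp background correction with quantile normalization.

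These genes lie head to head on chromosome 17, with start sites 110 bases apart in RefSeq (GRCm38.p6), and both differed in the same way on these arrays. The stretch that both promoter windows share is shown for this reason, on the plus strand, with GATA boxes (AGATAA, or TTATCT on the other strand) in capitals, a motif that blood and liver GATA factors bind.
*Abcg5* and *Abcg8* shared stretch, chr17:84682962-84683170: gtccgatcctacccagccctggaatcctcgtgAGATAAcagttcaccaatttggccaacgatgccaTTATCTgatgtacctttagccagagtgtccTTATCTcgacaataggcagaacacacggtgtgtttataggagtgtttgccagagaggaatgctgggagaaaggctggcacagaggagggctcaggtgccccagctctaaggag
The stretch of 209 bases held 3 such boxes. Promoter windows reach from 250 bases before to 50 bases after the start, and AGATAA on either strand was found in 11.2% of all 32851 windows and in 6 of the 45 windows of the 38 members that had one (*Abca12*, *Abca14*, *Abca16*, *Abcf2*, *Abcg5* and *Abcg8*). The E-box CACGTG was in 7.15% of all windows and in 6 of the 45, among them that of *Abca1*. A direct repeat of the nuclear receptor half-site AGGTCA with 4 bases between, the arrangement that LXR prefers, was in 0.0152% of all windows and in 0 of the 45. A match is of letters alone.

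**Figure D2:**
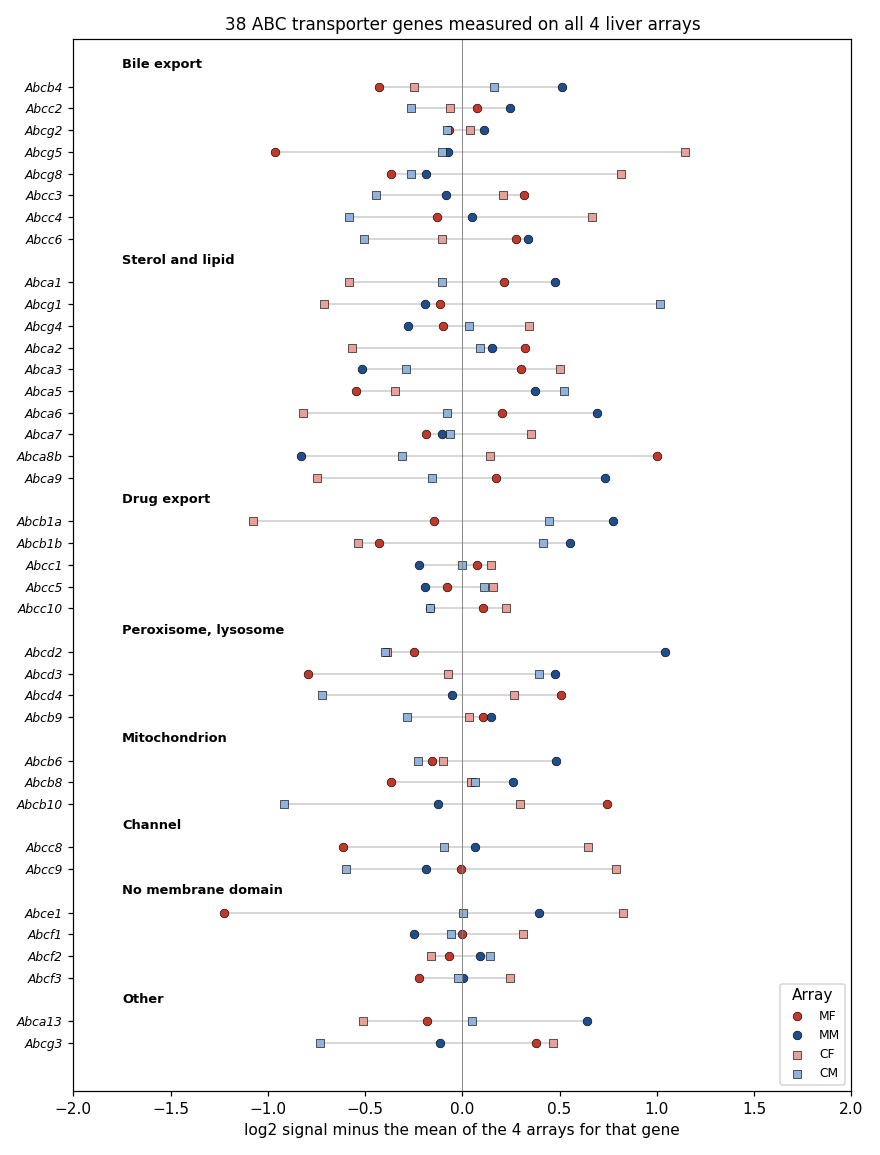
Level of each of 38 ABC genes measured on all 4 arrays, as log2 deviation from the mean of the gene over the arrays (horizontal axis), with genes in rows grouped by role and 1 point per array. CF is the highest array for *Abcg5*, *Abcg8* and *Abcc4*, while both M arrays lie above their controls for *Abca1*, *Abca6* and *Abca9*.

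Of the other canalicular genes in the bile list, none of those without a flag passed 1.5-fold in either sex. *Abcb1a* and *Abcb1b* were counted as drug exporters and are described with those. *Abcb4*, the phospholipid floppase, was at 4.27 in MF, 5.21 in MM, 4.45 in CF and 4.86 in CM, with M minus C differences of -0.19 in females and 0.36 in males. *Abcc2* was at 2.51 in MF, 2.68 in MM, 2.37 in CF and 2.17 in CM, and its differences were 0.14 and 0.51. *Abcg2*, which exports urate, porphyrins and many drugs and is active in erythroid cells as well, was at 5.11, 5.29, 5.22 and 5.10 on MF, MM, CF and CM, a range narrower than the SD between spots of a probe. This depends on the scaling, since its difference in females was -0.57 with quantile normalization, with or without normexp background correction. For *Abcb11* the only spot was marked as non-uniform in MF, and it was left out of all counts. MF carried 916 marks of this kind over the array and the other arrays 130 to 182. Its values with that mark were 5.85 in MF, 5.26 in MM, 4.06 in CF and 4.54 in CM, so both M arrays lay above both C arrays. The bile salt export pump thus read 1.65-fold higher in the M male, where neither spot carried the mark, and 3.48-fold higher in the M female, a value that rests on the marked spot.

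Of the transporters that face the blood, *Abcc4* went in opposite ways in the sexes, and *Abcc3* and *Abcc6* were above their control in both. *Abcc4*, which exports bile salts and conjugated steroids from hepatocytes to blood, was at -0.29 in MF, -0.11 in MM, 0.51 in CF and -0.74 in CM. The M arrays lay between the C arrays, with the C female highest and the C male lowest. In M it was 1.74-fold lower in females and 1.54-fold higher in males. Neither difference held past 1.5-fold throughout, with -0.40 in females for the deposited values and 0.08 in males for normexp background correction. *Abcc3*, an exporter of glucuronides, was at 1.55 in MF, 1.15 in MM, 1.44 in CF and 0.79 in CM, with differences of 0.11 and 0.36. *Abcc6*, whose loss causes ectopic mineralization, was at 1.52 in MF, 1.58 in MM, 1.14 in CF and 0.74 in CM, and was 1.79-fold higher in MM. A second *Abcc6* probe differed by 0.52 in males and by -1.36 in females, the latter opposite in sign to the 0.38 of the brighter probe, so the direction in females depends on the probe.

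In all, 8 genes of the bile list could be measured on every array, and of these *Abcc3*, *Abcc4* and *Abcc6* face the blood. In females 3 of them were over 1.5-fold lower in MF (*Abcg5*, *Abcg8* and *Abcc4*) and 0 were higher, with a median of -0.15, where 21% and 19.9% of all genes were. In males all 8 lay above 0 with a median of 0.36, where 9316 of all 19298 genes lay above 0. Of the 8, 2 passed 1.5-fold upwards (*Abcc4* and *Abcc6*, both facing the blood), where 17.7% of all genes did. The number above 0 in males was 7 of 8 with quantile normalization and 7 with a position trend removed, and 6 with normexp background correction. Markers of hepatocytes, 10 of 10 well above background on every array, summed to 6010 times the 75th percentile in MF, 3660 in MM, 5240 in CF and 5170 in CM. In males 4 of these markers were over 1.5-fold lower in MM, and 2 (*Apob* and *Hnf4a*) were over 1.5-fold higher. The median of the hepatocyte markers in males was -0.45, and it was -0.10 with quantile normalization and 0.11 with the deposited values. Heart markers, 10 of 10 well above background in CF, summed to 180 times the 75th percentile there and to 2.43, 2.89 and 5.9 in MF, MM and CM, and CF was also the array on which *Abcg5*, *Abcg8* and *Abcc4* were highest. Whether the heart signal has a part in those values was not tested. In whole liver, fewer cells of a type and less RNA per cell cannot be told apart.

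The sterol and lipid transporters of subfamily A were mostly higher in MF. *Abca1*, which hands cholesterol and phospholipid to apolipoprotein A-I, was at 3.42 in MF, 3.68 in MM, 2.62 in CF and 3.1 in CM, so both M arrays lay above both C arrays. It was 1.73-fold higher in MF, past the threshold, and 1.49-fold higher in MM, just short of it. In females it stayed past 1.5-fold under every alternative, and in males it turned to -0.29 with normexp background correction.

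*Abca6* and *Abca9* belong to a cluster of lipid transporter genes on chromosome 11 that holds *Abca5*, *Abca8a* and *Abca8b* as well. *Abca6* was at 0.52 in MF, 1.01 in MM, -0.50 in CF and 0.24 in CM, so that M exceeded C by 2.04-fold in females and 1.72-fold in males. *Abca9* was at -1.28 in MF, -0.72 in MM, -2.20 in CF and -1.61 in CM, or 1.90-fold and 1.85-fold higher. In both genes the M arrays lay above the C arrays and, within M and within C, the male array above the female. *Abca6* kept its 1.5-fold difference in both sexes under every alternative, and *Abca9* kept it in females and fell to 0.33 in males with normexp background correction.

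Their neighbours did not share this pattern. *Abca8b* was at 3.89 in MF, 2.06 in MM, 3.03 in CF and 2.58 in CM, so that in M it was 1.81-fold higher in females and 1.43-fold lower in males. MF was the highest array and MM the lowest. *Abca5* was at -1.76 in MF, -0.84 in MM, -1.56 in CF and -0.69 in CM, where both males lay above both females, with M minus C differences of -0.20 and -0.15. *Abca8a* was well above background in MM only, at -4.61.

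Of the remaining lipid transporters, *Abca2* passed 1.5-fold in females and the others in neither sex. *Abca2*, a lysosomal lipid transporter best known from myelin, was at -1.82 in MF, -1.99 in MM, -2.71 in CF and -2.05 in CM, with CF lowest and a 1.86-fold difference in females. A second *Abca2* probe, not well above background in CM, was 1.49-fold higher in MF and at least 2.99-fold higher in MM, and the mean over probes gave 0.82 in males in place of 0.06. *Abca3*, which carries surfactant lipid in the lung, was at 2.98, 2.16, 3.18 and 2.39 in MF, MM, CF and CM, so both females lay above both males. *Abca7* was at 1.72 in MF, 1.80 in MM, 2.26 in CF and 1.84 in CM, with differences of -0.54 and -0.04. *Abcg4*, a sterol exporter best known from the brain, was at 1.10 in MF, 0.92 in MM, 1.54 in CF and 1.23 in CM. Its second probe, which overlaps the first, gave differences of -0.32 and -0.23 beside -0.44 and -0.31.

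*Abcg1*, which passes cholesterol to high-density lipoprotein, went in opposite ways. It was at 0.61 in MF, 0.53 in MM, 0.01 in CF and 1.74 in CM. The M arrays were alike, and CM stood 1.74 above CF on the log2 scale. In M, *Abcg1* was thus 1.52-fold higher in females and 2.32-fold lower in males. With normexp background correction these differences were 0.36 and -0.35.

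Counted together, 13 sterol and lipid genes could be measured on every array. In females 6 were over 1.5-fold higher (*Abca1*, *Abca2*, *Abca6*, *Abca8b*, *Abca9* and *Abcg1*) and 2 lower (*Abcg5* and *Abcg8*), with a median of -0.19, where 19.9% of all genes were higher and 21% lower. In males 2 were higher (*Abca6* and *Abca9*) and 1 lower (*Abcg1*), with a median of 0.03, where 17.7% and 23.1% of all genes were. By subfamily, the 9 *Abca* genes had medians of 0.79 in females and 0.06 in males, and the 6 *Abcg* genes -0.28 and 0.05. The *Abca* median in females ranged from 0.39 with normexp background correction to 1.19 with the deposited values, and the *Abcg* median in females was 0.13 with the deposited values, where the median of all genes was 0.32. Intestine markers were well above background for 10 of 12 genes in MF, 7 in MM and 6 each in CF and CM. Their sums were 287, 209, 152 and 134 times the 75th percentile, with *Tff3* the brightest on each array at 7.40, 6.67, 7.05 and 6.86. Of those compared, 9 of 10 were over 1.5-fold higher in MF, and in males 2 of 7 were higher and 2 lower. Macrophage markers summed to 234 in MF and 102, 102 and 104 in MM, CF and CM. In females 6 of 9 were over 1.5-fold higher in MF and 0 lower. *Csf1r* was the brightest of them in MF, at 6.96 beside 5.07 in CF, from a probe with 6 of the C and T windows described above. Several of the sterol and lipid transporters are active in macrophages and in the gut, and the part of those cells in the MF values was not tested.

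**Figure D3:**
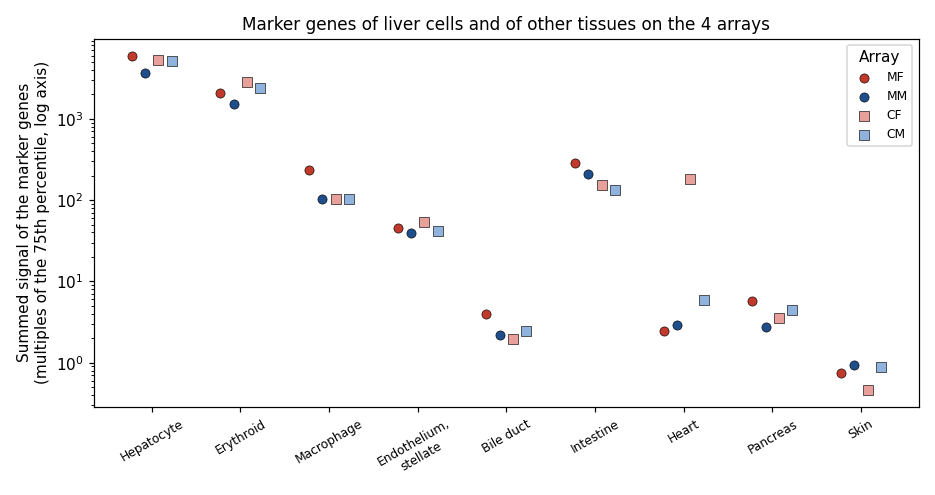
Summed signal of the marker genes of each cell type or tissue on the 4 arrays, in multiples of the 75th percentile of the array (log axis), with 1 point per array. Heart markers stand at 180 in CF and at 2.43 to 5.9 on the other arrays, and intestine markers are highest in MF at 287.

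Of the drug exporters, 9 could be measured on every array, and in females 1 passed 1.5-fold upwards and 1 (*Abcc4*) downwards, where 19.9% and 21% of all genes did. *Abcb1a*, one of the mouse P-glycoproteins, was at -1.22 in MF, -0.30 in MM, -2.15 in CF and -0.63 in CM, with M over C at 1.90-fold in females and 1.26-fold in males. Within each sex the M array was higher, and within M and C the male array was higher. *Abcb1b*, the other P-glycoprotein, was at -2.74 in MF, -1.76 in MM, -2.85 in CF and -1.90 in CM, with differences of 0.11 and 0.15. The longest stretch that the probes of the P-glycoprotein genes share was 7 bases. *Abcb1a* is active in the gut epithelium, and the intestine markers given above were likewise highest in MF, a link that was not tested.

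The brightest probes of the multidrug resistance proteins outside the bile list did not pass 1.5-fold in either sex. *Abcc1* was at -0.41, -0.71, -0.34 and -0.49 in MF, MM, CF and CM, and *Abcc10* at -0.77, -1.04, -0.65 and -1.04. *Abcc5*, an exporter of nucleotide analogues, was at -0.34 in MF, -0.45 in MM, -0.10 in CF and -0.15 in CM, so both M arrays lay below both C arrays, by 1.18-fold in females and 1.23-fold in males. Its probe was printed at 10 spots, of which the 9 unflagged had an SD of 0.18 in MF, 0.17 in MM, 0.30 in CF and 0.13 in CM. Dimmer *Abcc5* probes did not share 1 value in males, where they gave -1.08, -0.07 and, against a CM spot not well above background, 1.11. *Abcc12* was at -4.16 in MF, -4.38 in MM and -3.82 in CF and was not well above background in CM. The median of the 9 drug exporters was -0.07 in females and 0.19 in males.

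The members that follow serve other compartments and were chosen for mention after their values were seen. Of the 4 mitochondrial members, 3 were over 1.5-fold higher in MM than in CM, where 17.7% of all genes were. *Abcb10*, which supports heme synthesis in erythroid cells, was at 4.63 in MF, 3.76 in MM, 4.18 in CF and 2.97 in CM, 1.73-fold higher in MM. *Abcb6*, a porphyrin transporter, was at 2.44 in MF, 3.08 in MM, 2.50 in CF and 2.37 in CM, 1.63-fold higher. For *Abcb6* MM stood above 3 arrays that were alike, and for *Abcb10* both females lay above both males.

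The mitochondrial list had a median of 0.71 in males and -0.14 in females. With normexp background correction the median in males was -0.02 and 1 of the 4 genes lay above 0, with *Abcb10* at -0.02. All 8 *Abcb* genes were above 0 in males, with a median of 0.39, and 4 of 8 with normexp background correction. Erythroid markers, 12 of 12 well above background on every array, summed to 1510 times the 75th percentile in MM and 2410 in CM, and to 2070 in MF and 2840 in CF. The brightest of them were *Hba-a1* and *Hbb-b1*, at 9.26 and 9.44 in MM and at 9.72 and 10.3 in CM. The median of the 12 markers in males was -0.21, and it was 0.03 with median centring and 0.35 with the deposited values. The part of erythroid cells in the *Abcb6* and *Abcb10* values was not tested. Of the 12 markers, 2 were over 1.5-fold lower in MM and 1 was higher.

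Among the peroxisomal half-transporters *Abcd2* had the largest difference in males. *Abcd2*, which imports very long chain fatty acids, was at 0.16 in MF, 1.45 in MM, 0.02 in CF and 0.01 in CM. MM was set apart from 3 arrays within 0.16 of 0, and *Abcd2* exceeded CM there by 2.70-fold and kept a difference over 1.5-fold under every alternative. *Abcd3*, the abundant peroxisomal protein that imports branched chain acids and bile acid precursors, was at 4.48 in MF, 5.75 in MM, 5.20 in CF and 5.67 in CM, 1.64-fold lower in MF, the lowest array. *Abcd4*, which acts in lysosomal cobalamin export, was 1.59-fold higher in MM, at -0.36 beside -1.03 in CM.

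Members without a membrane domain serve translation rather than transport. *Abce1*, the ribosome recycling factor, was at 2.44 in MF, 4.06 in MM, 4.49 in CF and 3.67 in CM. MF lay well below each other array, and the gene was 4.13-fold lower in MF than in CF. It kept a difference over 1.5-fold in females under every alternative, from 1 probe. The 3 *Abcf* genes had differences between -0.48 and 0.09 in females and between -0.19 and 0.03 in males.

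*Abcc8* and *Abcc9*, the sulfonylurea receptors that regulate potassium channels, were highest in CF. *Abcc9*, the form of heart and smooth muscle, was at 0.92 in MF, 0.74 in MM, 1.72 in CF and 0.33 in CM, and *Abcc8* at -3.61, -2.93, -2.35 and -3.09. They were 1.73-fold and 2.40-fold lower in MF than in CF. Of the 10 heart markers, 9 were over 1.5-fold lower in MF than in CF, and the part of heart RNA in the *Abcc9* value was not tested.

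*Abca17* had the widest range of any member, at 1.65 in MF, -4.56 in MM and -1.86 in CF, while in CM it was not well above background. MF exceeded CF by 11.4-fold. Its second probe was not well above background on any array, and its neighbour *Abca3*, whose start site lies 964 bases away on the other strand, differed by -0.19 in females. *Abca4* was well above background in CM only, at -2.81, and was at least 4.24-fold lower in MM. Past 1.5-fold in males were also *Abca13*, at -0.66 in MM and -1.25 in CM, and *Abcg3*, at -1.10 in MM and -1.72 in CM.

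**Figure D4:**
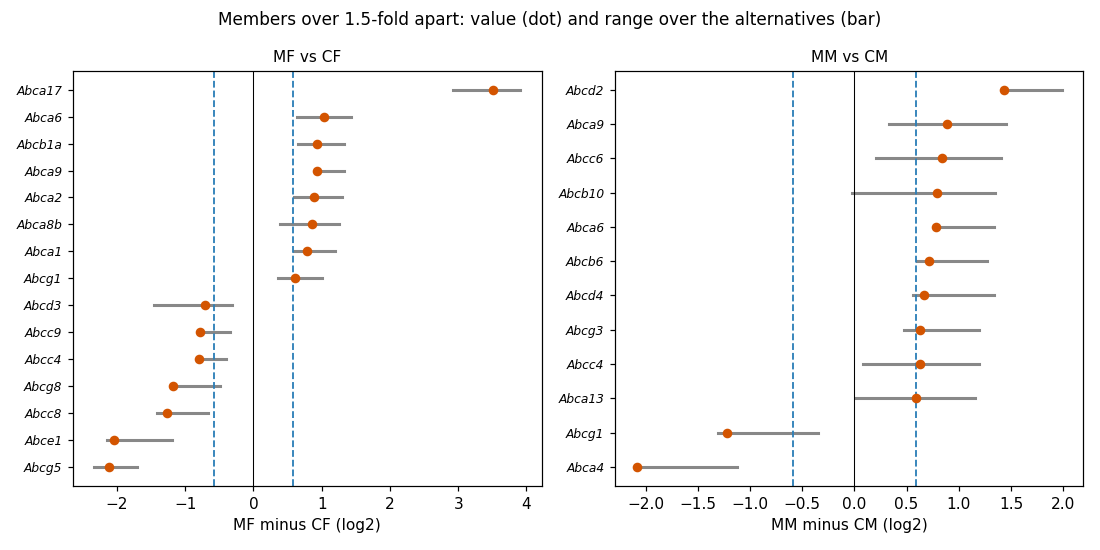
Log2 difference of members past 1.5-fold in MF minus CF (15) or in MM minus CM (12 of 13) (points), with bars from the lowest to the highest value over the alternatives and dashed lines at 1.5-fold. In females 9 of the 15 stay beyond the lines under each alternative drawn, and in males *Abca6*, *Abcb6* and *Abcd2* do, as does *Abca4* where it could be compared.

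Between male and female arrays 21 members passed 1.5-fold in C and 18 in M, beside 15 between M and C in females and 13 in males. This order depends on the processing, since with median centring MM and CM differed in 20 members and MM and MF in 16. In C livers 8 of 43 members were over 1.5-fold higher in CM than in CF, where 26.6% of 25195 genes were, and 13 were lower, where 19.7% were. In M livers 14 of 43 members were higher in MM than in MF against 28.9% of 26734 genes, and 4 were lower against 20.5%. These comparisons use the same arrays as the M against C comparisons. Higher in the male on both pairs of arrays past 1.5-fold were *Abca5* (1.83-fold in C and 1.90-fold in M), *Abcb1a* (2.86-fold and 1.89-fold) and *Abcb1b* (1.93-fold and 1.98-fold). Higher in the female on both were *Abca3* (1.73-fold in C and 1.77-fold in M), *Abcb10* (2.31-fold and 1.83-fold) and *Abca17* (at least 7.06-fold in C and 74.2-fold in M).

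Other genes of bile and drug handling were counted from lists of uptake carriers, nuclear receptors and ABC genes with other names. Of the uptake and efflux carriers, 9 could be compared in females, with 4 over 1.5-fold higher in MF and 2 lower, and 9 in males, with 5 higher in MM and 1 lower. Of all genes 19.9% were higher and 21% lower in MF, and 17.7% higher and 23.1% lower in MM. *Ostb*, a subunit of the basolateral bile salt exporter, was at -0.78 in MF, 0.27 in MM, -2.71 in CF and -1.34 in CM, 3.81-fold and 3.05-fold higher in M. Its partner *Osta*, named after its value was seen, exceeded CF by 14.0-fold in MF and was not well above background in either male. The intestine markers given above were also highest in MF, and their part in these values was not tested. *Slco1a1*, an organic anion uptake carrier, was well above background in MF and MM only, at least 10.4-fold and 1.65-fold higher there. Of 15 regulators, 3 were higher and 4 lower in MF, and 4 higher and 0 lower in MM, beside the same shares of all genes. *Hnf4a*, a master regulator of hepatocyte genes, was at 6.77, 6.81, 6.13 and 5.80 in MF, MM, CF and CM, 1.56-fold and 2.01-fold higher in M.

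*Srebf1*, which drives fatty acid synthesis and is named after its value was seen, exceeded CF by 5.54-fold in MF and had a difference of 0.50 in males. *Srebf2*, which drives cholesterol synthesis, was at 2.38 in MF, 1.44 in MM, 1.62 in CF and 0.80 in CM, 1.69-fold and 1.56-fold higher in M. Of the 4 regulators lower in MF, the bile acid receptor *Nr1h4* had a difference of -0.71 and *Nr1i2*, the pregnane X receptor, of -0.92, while in males these were 0.05 and 0.05. *Nr0b2* and *Nr5a2*, which act with *Nr1h4* in bile acid control, had -0.88 and -0.82 in females and 0.19 and 0.18 in males. The LXR genes *Nr1h2* and *Nr1h3* had 0.53 and -0.43 in females and -0.41 and 0.25 in males, none past 1.5-fold. *Cftr*, the chloride channel of the ABC family, was higher in M by 3.44-fold in females and 1.52-fold in males, and *Tap1* and *Tap2*, the antigen peptide transporters, did not pass 1.5-fold.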

How the data were processed

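Liver RNA of 4 samples (MF, MM, CF and CM) was labelled with Cy3 by the authors and hybridized to 1-colour Agilent arrays of 60-base probes. The scans were quantified with Agilent Feature Extraction 10.7.3.1, per the file headers. The deposited value is the processed signal of each spot, a linear intensity that the software corrected for background and detrended, and the authors deposited it without scaling between arrays (the deposited table equalled it in all 62976 spots). The authors' probe annotation is on mm9.

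The 1754 spots that the software marked as outliers on at least 1 array were not used. The log2 of the intensity minus the 75th percentile of the array was used, spots of a probe were averaged, and the brightest probe stood for the gene. A gene was compared where at least 1 of the 2 arrays was well above background, and counted past 1.5-fold. Where the other array was not, a difference is a lower bound against the lowest signal well above background there (log2 -5.98 in MF, -5.83 in MM, -5.48 in CF, -4.68 in CM) or the probe's own signal if higher. Spots well above background were 63.7%, 65.3%, 57.7% and 56.1% on MF, MM, CF and CM, and 0 member spots were saturated. Their number, 1 array per group, limits the precision of every value. limma 3.58.1 (R 4.3.3) modelled M against C plus a sex term over the 19298 genes measured on every array, with Benjamini-Hochberg adjustment, and was tested on simulated data.

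The members, gene lists and marker lists were chosen with earlier results of these data known. Values on all arrays are given for the bile, sterol and drug lists and for members past 1.5-fold the same way in both sexes. Members of other lists are said to be chosen after their values were seen. Alternatives were median centring, quantile normalization alone or after normexp (offset 50) background correction, no scaling, other filters on dim probes, the mean over probes, a 2-fold threshold, flagged spots kept, and removal of trends with array position, GC content or C and T windows. All 50 symbols matched RefSeq, and 38 had a promoter sequence (GRCm38.p6).
Values of 2 members and 1 probe sequence are not reported here, though both genes are in all counts and medians.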

Additional observations from a re-analysis of the deposited data

Results flagged for a closer look

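For *Abcc4* the M array lay below its control in females and above it in males, past 1.5-fold each time, and MF minus CF less MM minus CM was -1.43 on the log2 scale. *Abcg1* went the other way, above its control in females and below it in males, with 1.82 for the same quantity. Under other processing *Abcc4* was at -0.40 in females with the deposited values and 0.08 in males with normexp background correction, and *Abcg1* at 0.36 and -0.35 with the latter, so the calls were lost there. Each group was 1 array, and the difference between the sexes was not tested.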

How the results depend on the processing

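The count of members past 1.5-fold in females (15, of which 8 were higher and 7 lower) was 6 at 2-fold (2 higher, 4 lower). With the deposited values 16 of 42 members passed 1.5-fold, 4 of them lower, where 45% of all genes passed it. With normexp background correction 15 of 42 passed it, and with a position trend removed 18 of 42. Under each of these settings that was a larger share than of all genes, so the order in females turned round there. The median of -0.08 was 0.01 with median centring and 0.32 with the deposited values, where all genes had 0.01 and 0.32, and -0.15 with normexp background correction. In males the count of 13 (11 higher, 2 lower) was 20 with median centring (18 higher), 33 with the deposited values (31 higher), 21 with no filter on dim probes (7 lower) and 3 at 2-fold (1 higher). With normexp background correction 7 were lower, and with both arrays well above background 1 was. All genes shifted upwards as well, from a median of -0.03 to 0.21 with median centring and 0.53 with the deposited values. The shares of all genes in males under these settings are not given, so the male counts describe the processing and not the members. The median of 0.19 was 0.43 with median centring (all genes 0.21), 0.30 with quantile normalization, 0.07 with normexp background correction, 0.75 with the deposited values (all genes 0.53) and 0.31 with the mean over probes.

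Alternatives for the sexes were added after the data were seen. CM vs CF (21, with 8 higher and 13 lower) gave 3 higher and 23 lower with median centring and 10 at 2-fold (3 higher, 7 lower). MM vs MF (18, with 14 higher and 4 lower) gave 9 higher and 7 lower with median centring, 8 lower with normexp background correction, and 5 at 2-fold (3 higher, 2 lower). Shares of all genes under these alternatives are likewise not given, so the counts for the sexes describe the processing alone. Of 942 log2 differences of single members, 142 moved by more than the spread between spots, 40 of them with normexp background correction. Another 86 of the 142 were all those with the deposited values. Leaving out the scaling shifts every gene of a comparison by the same amount, so these 86 say nothing about single members. Of the differences past 1.5-fold, 2 reversed with normexp background correction in males, both at -0.02, *Abcb10* among them. Smaller differences also changed sign, such as *Abca1* in males from 0.58 to -0.29 with that correction. limma called 0 members under each alternative fitted. The cause of the other changes was not tested.

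No paired analysis was possible because the groups share only 1 replicate number, while limma's sex term set M against C within each sex. With 1 array per group no array was left out of a comparison. Members not well above background on an array have only a bound there, and 33 of the 49 members with an unflagged probe rest on 1 probe.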
